A study of Mus musculus with 7 samples.

Results

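S100a8, S100a9, S100a4, S100a6, S100a10 and S100a11 encode small calcium-binding proteins of the S100 family, and their transcripts were followed through the cell classes of mouse bone marrow. The 6 genes were chosen by symbol and make up 6 of the 31053 genes counted. Each was found in all 7 libraries. Whole marrow had been flushed from spine, hips, femur and tibia, red cells had been lysed, and cells of several samples had been marked with hashtag antibodies, pooled and sequenced with a droplet 3′ kit, so that 4 pools (WBM_1 to WBM_4) hold 20 hashtag samples. Cells were sorted into classes by marker genes, with no S100 gene among them, and a class name below stands for cells that resemble the class by those markers.

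The chronic group is HRO.5 and HRO.6, both in WBM_1, named in the series text as chronic and TET2-mutated. The HRO group has 6 samples, HRO.7, HRO.8 and HRO.9 in WBM_2, HRO.10 in WBM_3, and HRO.11 and HRO.12 in WBM_4. The HRY group has 3 samples, HRY.4 in WBM_1 and HRY.5 and HRY.6 in WBM_3. The WTO group has 4 samples, WTO.3 in WBM_1, WTO.4 in WBM_2, and WTO.5 and WTO.6 in WBM_4. The WTY group has 3 samples, WTY.3 in WBM_1 and WTY.4 and WTY.5 in WBM_3. HR.7 in WBM_3 and HR.AE in WBM_2 stand alone and enter no comparison. Genotype, strain, age and treatment behind the prefixes are not given in the labels, and the prefixes are not interpreted. Whether each hashtag stands for its own animal is not stated, so the spread behind every p-value is that between hashtag samples and may be technical.

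S100 proteins carry paired EF-hand loops, bind calcium and then expose a surface for partner proteins. S100A8 and S100A9 pair as calprotectin, an abundant protein of the neutrophil cytosol that chelates metals and, once released, acts as an alarmin through the receptors TLR4 and RAGE. S100A10 binds annexin A2, S100A11 binds annexin A1, S100A4 binds non-muscle myosin and S100A6, or calcyclin, binds annexins and other partners.

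The libraries held 25343305 to 95553827 UMIs, unique molecular identifiers that each count 1 captured transcript molecule, so that levels of different genes can be compared without scaling by length. After filtering, 43062 cells remained and 37748 fell into a class, among them 12746 immature neutrophils, 9148 monocytes, 4215 mature neutrophils, 2603 B lineage cells, 2062 granulocyte-monocyte precursors and 1719 T cells. Levels are CPM, the gene's UMIs scaled to a fixed total of the UMIs summed over the cells of 1 sample and class, given for samples with at least 20 such cells. WBM_3a and WBM_3b, the libraries of WBM_3, shared 2078 cell barcodes, against 51 for the next pair of libraries. HR.AE had too few neutrophils, monocytes and lymphocytes for a level in those classes, and most of its cells were basophils or mast cells.

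All 6 genes lie on chromosome 3 of the mouse genome, in 2 groups separated by 2824774 bases (RefSeq, GRCm38.p6). The first group holds S100a4 (chr3:90603770-90606045), S100a6 (chr3:90612894-90614414), S100a8 (chr3:90669071-90670034) and S100a9 (chr3:90692630-90695721), with 22595 bases between the last pair. The second holds S100a11 (chr3:93520496-93526288) and S100a10 (chr3:93555117-93564645), 28828 bases apart. The neighbours S100a8 and S100a9 are transcribed in opposite directions. The 250 bases before the transcription start of each are shown because these are the genes that changed together in monocytes. The S100a8 stretch is chr3:90668821-90669070 on the plus strand and the S100a9 stretch chr3:90695722-90695971 on the minus strand, both 5′ to 3′, with capitals marking a match to TATAAA (the letters of a TATA box) in S100a8 and to TTGCNNAA (letters bound by C/EBP factors) in S100a9.
S100a8: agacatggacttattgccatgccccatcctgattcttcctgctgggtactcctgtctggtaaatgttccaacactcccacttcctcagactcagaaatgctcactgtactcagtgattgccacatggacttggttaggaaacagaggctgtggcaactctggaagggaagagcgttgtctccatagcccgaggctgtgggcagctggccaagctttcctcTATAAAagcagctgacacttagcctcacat
S100a9: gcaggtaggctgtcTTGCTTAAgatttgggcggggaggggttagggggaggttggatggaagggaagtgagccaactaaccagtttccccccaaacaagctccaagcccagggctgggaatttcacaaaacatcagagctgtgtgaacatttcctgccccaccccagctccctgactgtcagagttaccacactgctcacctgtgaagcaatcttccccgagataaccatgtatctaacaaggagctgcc
The TATAAA match lies 30 bases before the S100a8 start and 31 before the S100a4 start. It was found on either strand in 12.4% of the upstream stretches of 32851 RefSeq promoters. TTGCNNAA was found in 9.56% of them, and among the members only in S100a9, where it begins 236 bases before the start. TGANTCA, the letters of an AP-1 element, was in 6.75% of all stretches and in that of S100a11, and GAGGAA, the core of a PU.1 element, was in 23.3% and in those of S100a8 and S100a11. The motifs do not overlap in the stretches shown, were chosen after the letters had been seen, and are a description of the sequence only. The table of promoters held 5 of the 6 members, and S100a10 was the member not matched.

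The 6 members fell into different patterns across the classes. S100a8 and S100a9 were highest in immature and mature neutrophils, where each was among the most abundant transcripts. S100a6 and S100a11 were also highest in mature neutrophils. S100a4 and S100a10 were highest in monocytes and T cells and were low in neutrophils.

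S100a8 had 85860, 133200 and 245400 CPM in immature neutrophils (lowest, median and highest of 19 samples). In mature neutrophils it had 45240, 113300 and 220000 CPM, below the immature level of the same sample in 18 of 19. Granulocyte-monocyte precursors had 5591, 20190 and 32500 CPM, below mature neutrophils in 19 of 19 samples. S100a9, its partner in calprotectin, followed the same order, with medians of 126800 CPM in the immature class, 105400 CPM in the mature class and 16220 CPM in precursors. Below the precursors the order of classes was not stable between samples. S100a8 had a median of 3050 CPM in T cells, 2187 in monocytes and 894.7 in B lineage cells, and monocytes lay above B lineage cells in 9 of 16 samples.

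S100a6 had 7073, 13660 and 16680 CPM in mature neutrophils (lowest, median and highest of 19 samples) and exceeded monocytes of the same sample in 19 of 19. Its medians in monocytes and immature neutrophils, 3174 and 2960 CPM, were close, and monocytes were higher in 13 of 19 samples. T cells followed at 1241 CPM, and precursors were lowest at 103.6 CPM, so that along the neutrophil line the median was higher at each later stage. S100a11 also climbed along that line, with medians of 653.9 CPM in precursors, 1680 CPM in immature and 5564 CPM in mature neutrophils, and mature cells were above immature cells in 19 of 19 samples. Monocytes had 859.1 CPM of S100a11, T cells 547.8 and B lineage cells 228.7.

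S100a4 had 411.1, 1391 and 2010 CPM in monocytes (lowest, median and highest of 19 samples) and 23.6, 383.1 and 1080 CPM in T cells (14 samples), and monocytes were higher in 12 of 14. The lowest T-cell level, that of WTO.3, rests on 1 UMI. In immature neutrophils its median was 9.665 CPM, in mature neutrophils 16.81 and in B lineage cells 14.98. S100a10 had medians of 1195 CPM in monocytes and 1050 CPM in T cells, with monocytes higher in 11 of 14 samples, and NK cells had 722.3 and 774.0 CPM in the 2 samples with enough of them. Basophils or mast cells had 518.5 CPM and B lineage cells 281.2 CPM. Neutrophils were lowest, at 23.17 CPM in the mature and 12.59 CPM in the immature class. S100a4, S100a6, S100a8 and S100a9, neighbours on the chromosome, thus did not share a pattern, and nor did S100a10 and S100a11.

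**Figure D1:**
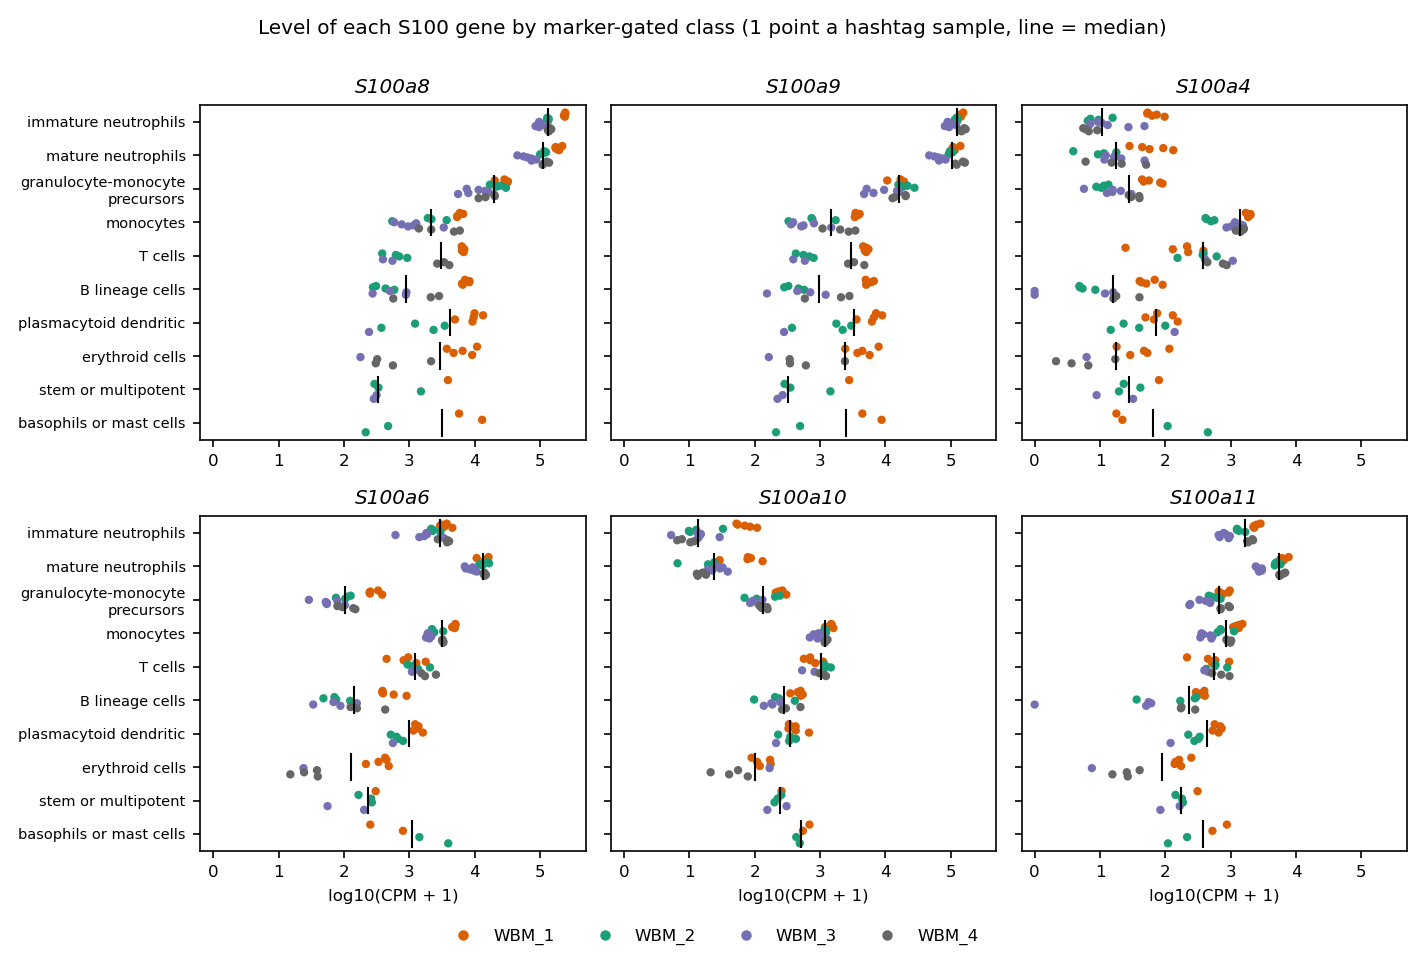
Levels of the 6 members as log10(CPM + 1) on the x axis across marker-gated marrow classes, with 1 point per hashtag sample of at least 20 cells and a line at the median. S100a8 and S100a9 peak in immature neutrophils, at medians of 133200 and 126800 CPM, whereas S100a4 and S100a10 peak in monocytes, at 1391 and 1195 CPM. S100a10 is lowest in neutrophils, and S100a4 is lowest in immature neutrophils, at 9.665 CPM, with B lineage cells (14.98), erythroid cells (16.56) and mature neutrophils (16.81) close above.

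Across the 13 classes with at least 3 samples, S100a8 and S100a9 were almost the same profile, with a Pearson correlation of 0.998 in mean log2(CPM + 10). Classes share libraries and free RNA, so these correlations are descriptions and carry no p. Among the 5960 other and member genes reaching 50 CPM in a class, the non-members most like S100a8 were Wfdc21 (0.996), Lrg1 (0.972) and Lcn2 (0.969), and those most like S100a9 were the same 3 genes at 0.995, 0.974 and 0.967. Lcn2 encodes the iron-siderophore-binding lipocalin of neutrophil granules. S100a4 was most like Ms4a6b (0.839), Raph1 (0.835) and Sulf2 (0.826), and S100a6 most like Rap1gap2 (0.951), Prr13 (0.943) and Tmem189 (0.885). For S100a10 the genes were Arl6ip5 (0.899), Esyt1 (0.884) and Nop53 (0.877), and for S100a11 Lyst (0.944), Evi2 (0.937) and Rgs14 (0.922). S100a8 correlated with S100a4 at -0.271 and with S100a10 at -0.615.

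In droplet data RNA freed from broken cells enters other droplets, and B lineage cells, which should lack S100a8 and S100a9, measure this background. B lineage cells had 7479 CPM of S100a8 in WBM_1, 1484 in WBM_4, 599.7 in WBM_3a and 790.5 in WBM_3b, and 279.5 to 433.4 in the 3 libraries of WBM_2. The monocyte level was 0.763 times the B lineage level in WBM_1 and 1.09 times in WBM_3b, 3.51 times in WBM_3a, 3.02 times in WBM_4, and 5.64 to 8.90 times in WBM_2. In CPM, monocyte S100a8 in WBM_1 was therefore not above the B lineage level of that pool. Monocytes there were deeper, with a median of 3064.5 UMIs a cell, against 830 in B lineage cells. A deeper cell has a lower CPM from the same free RNA, and the part of free RNA in the monocyte level was not tested. For S100a9 the monocyte level was 0.629 times the B lineage level in WBM_1, 0.512 times in WBM_3b, and 1.85 to 3.92 times in the other 5 libraries. T cells, which should also lack these genes, had 0.411 to 2.15 times the B lineage level of S100a8. In WBM_4, the library with the highest of these, monocytes had 4482 CPM of S100a8, against 3185 CPM in T cells, and 2739 CPM of S100a9, against 3363 CPM in T cells, so that there the S100a9 of monocytes was not above that of T cells. For S100a4 the background was small, since monocytes of WBM_1 had 1853 CPM and its B lineage cells 56.36 CPM.

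The share of cells with a UMI separated monocytes from B lineage cells less than the level did. With cells thinned to 1000 UMIs and shallower cells left out, a UMI of S100a8 was found in 59.6% of 9028 monocytes (median 6046 UMIs before thinning) and in 62.9% of 1578 B lineage cells (median 2752), and without thinning the shares were 91.0% and 95.1%. Of the thinned cells, 1967 monocytes and 521 B lineage cells come from WBM_1, the pool of high background. The thinned shares were 97.8% of monocytes and 98.8% of B lineage cells in WBM_1, and 49.0% and 45.2% in the other pools. For S100a4 the share was 56.8% of monocytes and 26.9% of T cells, against 2.72% of B lineage cells, and it was 1.56% of immature and 1.34% of mature neutrophils. S100a10 was found in 57.8% of monocytes, 58.2% of T cells and 27.6% of B lineage cells, and in under 2% of either neutrophil class. S100a6 was found in 98.4% of mature neutrophils, 86.7% of monocytes, 68.1% of immature neutrophils and 16.5% of B lineage cells. S100a11 was found in 96.1% of mature and 75.6% of immature neutrophils, 49.1% of monocytes and 23.4% of B lineage cells.

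The ratio of S100a8 to S100a9 was higher in monocytes than in the classes that measure the background. Its median over samples was 1.69 in monocytes, against 1.08 in B lineage cells, 1.08 in T cells, 1.08 in mature and 1.05 in immature neutrophils. The monocyte ratio was above that of B lineage cells in 16 of 16 samples, above T cells in 14 of 14 and above each neutrophil class in 16 of 19. WBM_1 was the pool where classes lay closest, with 1.58 in monocytes and 1.63 in immature neutrophils. Camp, the cathelicidin of immature neutrophils, was 0.0391 to 0.0446 times S100a8 in monocytes of the WBM_2 libraries and 0.338 to 0.386 times in their B lineage cells, near the 0.448 to 0.470 times of immature neutrophils. The gap was smaller in WTO monocytes. WTO.4 had 0.206, against 0.333 in its B lineage cells, and WTO.5 and WTO.6 had 0.34 and 0.237, against 0.363 and 0.417. Camp was also used to sort cells into immature neutrophils, which limits its level in the monocyte class. WBM_3b stood apart in the ratio itself. Immature neutrophils of the same 6 samples had 57650 to 70670 CPM of S100a8 in WBM_3b and 95270 to 131900 CPM in WBM_3a, with no overlap, while S100a9 had 73680 to 109100 CPM in WBM_3b and 82900 to 126500 CPM in WBM_3a.

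**Figure D2:**
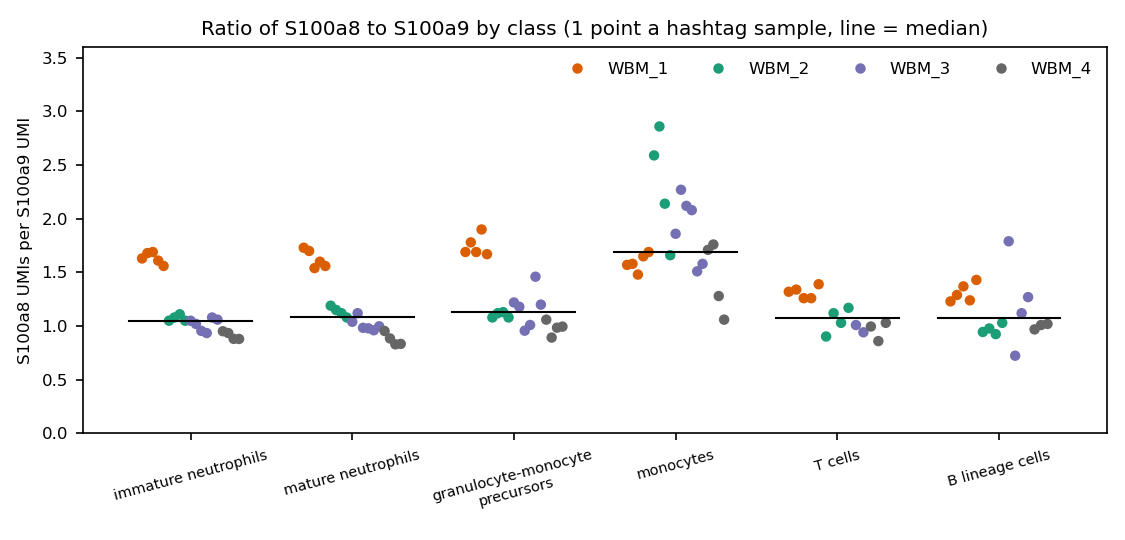
Ratio of S100a8 to S100a9 UMIs in each hashtag sample, by class and coloured by pool. Monocytes have a median ratio of 1.69, above the medians of 1.08 in B lineage and T cells.

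Monocytes of HRO samples had more S100a8 and S100a9 than WTO monocytes of the same pools. S100a8 was 1.90 log2 units higher in HRO than in WTO monocytes (standard error 0.244, adjusted p = 0.000222) and S100a9 1.38 higher (0.286, adjusted p = 0.00743), by edgeR's quasi-likelihood test with group and pool as terms, adjusted over 9876 genes. The other members did not pass. S100a4 had a log2 fold change of -0.21 (adjusted p = 0.207), S100a6 of 0.13 (0.428), S100a11 of 0.27 (0.303) and S100a10 of -0.03 (0.928). The 2 members called are among 934 genes, 9.46% of those tested, and the median over the 6 members was 0.20, against 0.02 over all genes.

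Sample by sample, S100a8 in HRO monocytes was 1923, 2187 and 3734 CPM in WBM_2, against 547.8 CPM in WTO.4 of that pool. In WBM_4 it was 5950 and 4850 CPM in HRO.11 and HRO.12, against 1405 and 2171 CPM in WTO.5 and WTO.6. Every HRO sample lay above every WTO sample of its pool, and within pools HRO exceeded WTO by 2.25 log2 units in WBM_2 and 1.59 in WBM_4. HRO.10 in WBM_3 had 3374 CPM, with no WTO sample beside it. WTO.3, in WBM_1, had 6690 CPM, the highest monocyte level of all samples, and its B lineage cells had 8339 CPM. Across pools the groups therefore overlapped.

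S100a9 in HRO monocytes was 742.8, 764.8 and 1742 CPM in WBM_2, against 329.2 CPM in WTO.4, and 3479 and 2757 CPM in WBM_4, against 1095 and 2041 CPM in WTO.5 and WTO.6. HRO.10 had 1488 CPM and WTO.3 4056 CPM. The groups again did not overlap within a pool, with differences of 1.72 in WBM_2 and 0.99 in WBM_4 on the log2 scale. In CPM, levels in lymphocytes ran the other way in WBM_2 and in part of WBM_4. Samples of a pool were mixed and share its free RNA, so these levels cannot measure a difference in free RNA between them. CPM also depends on the depth of the cells, and per B lineage cell the S100a8 UMIs did not run the other way. They were 1449 in 379 cells of HRO.7, against 315 in 182 cells of WTO.4. In HRO.11 they were 340 in 40 cells, against 342 in 44 and 1253 in 152 cells of WTO.5 and WTO.6. B lineage cells had 309.3, 276.9 and 433.3 CPM of S100a8 in the HRO samples of WBM_2, against 589.7 CPM in WTO.4, and 568.2 CPM in HRO.11, against 2861 and 2136 CPM in WTO.5 and WTO.6, and HRO.12 had too few for a level. T cells had 384.8, 624.1 and 702.9 CPM of S100a8 in the HRO samples of WBM_2, against 931.4 CPM in WTO.4, and 2682 and 4106 CPM in HRO.11 and HRO.12, against 3419 CPM in WTO.6. In HRO.12 they also had 4776 CPM of S100a9, above the 2757 CPM of its monocytes and the 3319 CPM of WTO.6 T cells. The part of free RNA in the HRO.12 values was not tested. With the neutrophil transcripts in B lineage cells as a further term, which left 16 samples since HRO.10 and HRO.12 had too few B lineage cells, S100a8 was 2.87 higher (adjusted p = 0.00393) and S100a9 2.49 higher (adjusted p = 0.0286). That term is a level in CPM, so it also follows the depth of the B lineage cells. HRO.7 had 4685473 UMIs in 379 of them, against 534191 in 182 of WTO.4. The fit therefore cannot part free RNA from depth. The calls rest on comparing within pools: without the pool term S100a8 was 0.25 higher (adjusted p = 0.956) and S100a9 was 0.21 lower (log2 fold change -0.21, adjusted p = 0.967). S100a9 was also not called without the samples of WBM_1 (1.35, adjusted p = 0.0560) or without WTO.4 (1.15, adjusted p = 0.0956).

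**Figure D3:**
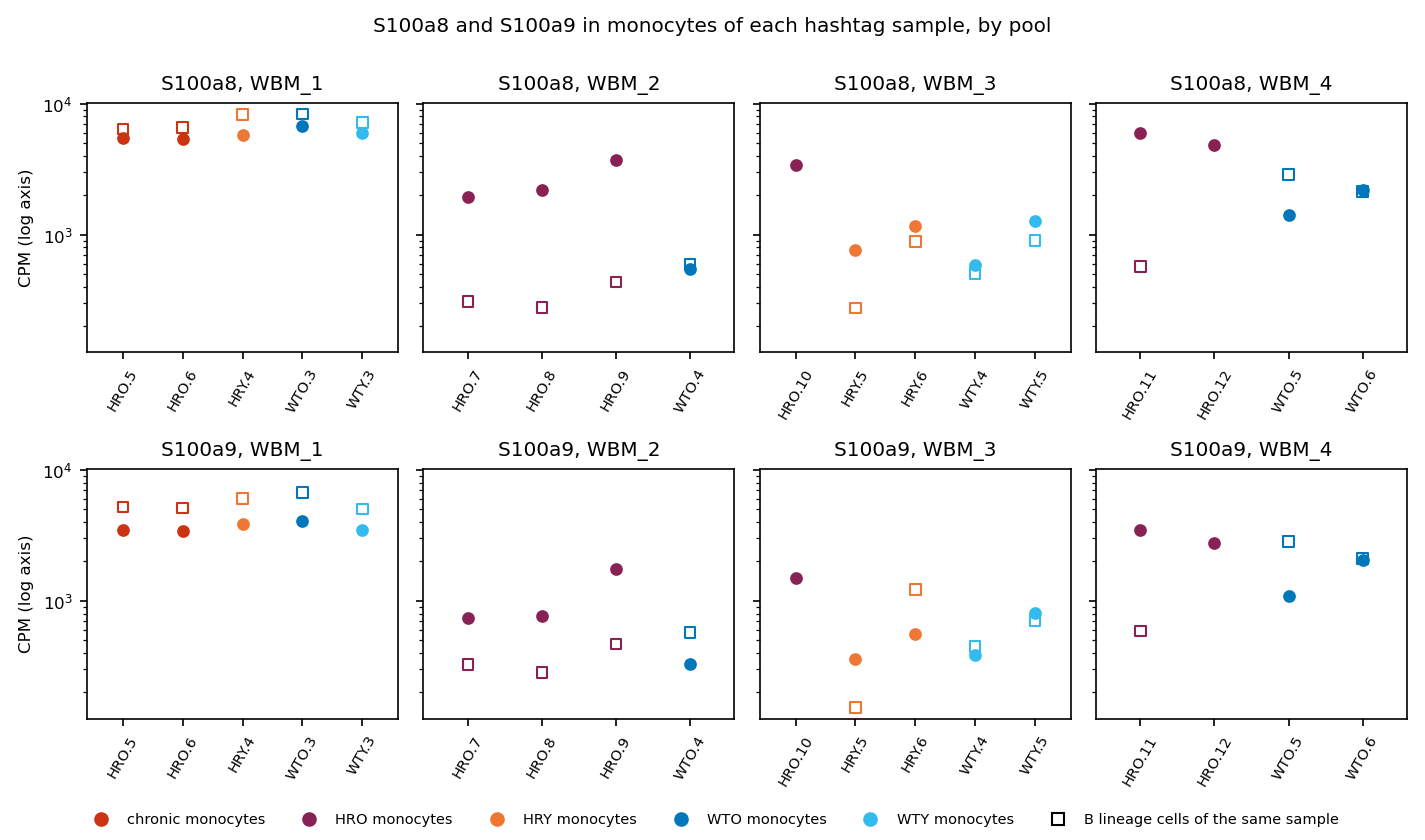
S100a8 and S100a9 in monocytes (filled circles) and, of the same sample, B lineage cells (open squares), in CPM on a log axis, by pool with chronic, HRO, HRY, WTO and WTY samples from left to right. In WBM_2 and WBM_4 the HRO monocytes lie above the WTO monocytes in S100a8, while B lineage cells of the HRO samples that have a value lie below, and in WBM_1 monocytes lie below the B lineage level.

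The difference was spread unevenly over single monocytes. Monocytes with at least 10000 CPM of S100a8 made up 5.41% (95% exact binomial interval 4.36 to 6.61), 5.28% (3.34 to 7.88) and 8.36% (7.0 to 9.89) of the cells in HRO.7, HRO.8 and HRO.9, against 0.454% (0.055 to 1.63) in WTO.4. They made up 19.0% (13.1 to 26.1) and 14.7% (9.22 to 21.8) in HRO.11 and HRO.12, against 0 of 62 cells, which allows a share of up to 4.84%, in WTO.5 and 3.85% (0.80 to 10.8) in WTO.6. HRO.10 had 7.61% (5.56 to 10.1), against 0.817% in HRY.6 and 0 of 129 cells, which allows up to 2.33%, in HRY.5 of the same pool. WTO.3 in WBM_1, where monocytes did not exceed B lineage cells in CPM, had 7.56% (4.09 to 12.6), inside the range of the HRO samples. The intervals cover counting error only. For a count of 0 the limit given is 3 counts divided by the cells. It lies below the upper end of an exact interval and is not to be compared with the intervals beside it. In the 6 HRO samples these cells held 50.3% to 70.4% of the monocytes' S100a8 UMIs. They carried 7904 to 12470 CPM of monocyte markers, against 8296 to 12790 CPM in the other HRO monocytes. Their neutrophil transcripts, counted without Lyz2 and Ifitm6, which monocytes also express, came to 1540 to 5605 CPM, against 441.7 to 1742 CPM. Of these cells 9.30% to 17.2% fell in the top 5% of a doublet score in HRO.9, HRO.10, HRO.11 and HRO.12, against 2.35% to 5.17% of the other monocytes there. In HRO.7 and HRO.8 it was 0 of 89 and 0 of 22, which allows up to 3.37% and 13.6%, against 0.193% and 0.506%. In the other HRO monocytes S100a8 was 1003, 1066 and 1672 CPM in WBM_2, against 495.8 CPM in WTO.4, and 2149 and 2071 CPM in WBM_4, against 1405 and 1260 CPM in WTO.5 and WTO.6. Cells were split here by S100a8 itself, so these values describe the distribution and test nothing, and the part of doublets in it was not tested beyond the alternative without the top doublet scores, in which both genes were still called.

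**Figure D4:**
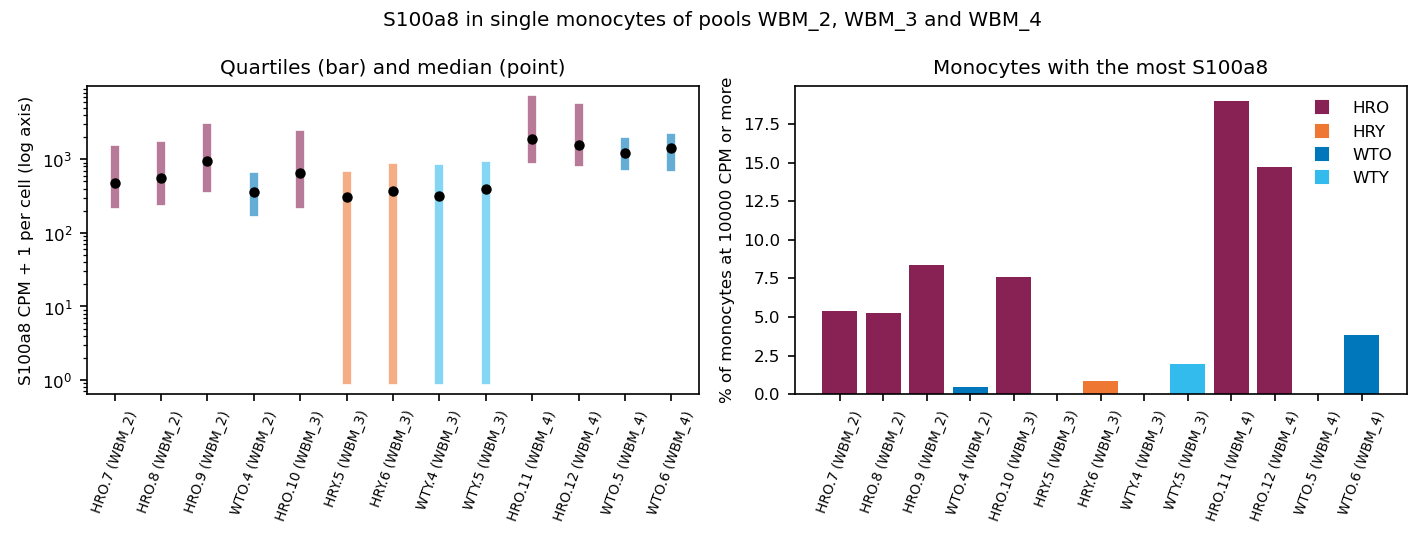
S100a8 in single monocytes of WBM_2, WBM_3 and WBM_4, with the quartiles and median of CPM + 1 per cell on a log axis on one side and the percent of cells at 10000 CPM or more on the other. HRO samples have 5.28% to 19.0% of cells at or above 10000 CPM, against 0% to 3.85% in WTO samples of WBM_2 and WBM_4.

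Neutrophil transcripts moved in both directions in HRO monocytes. Of the 12 neutrophil transcripts, 2 were higher in HRO than in WTO monocytes, Wfdc21 by 3.61 log2 units (edgeR adjusted p = 0.00213) and Lcn2 by 2.25 (adjusted p = 0.00229). Both are among the 3 genes most like S100a8 across classes, and the other, Lrg1, is not on this list. Another 4 were lower, Lyz2 (-0.36), the lysozyme of monocytes and neutrophils, Camp (-0.41), Cd177 (-1.38) and Ltf (-0.51), the lactoferrin of granules. The list had a median of -0.07, against 0.02 over all genes, and summed to 11700 to 18200 CPM in HRO monocytes, against 16960 to 23930 CPM in WTO monocytes. Camp, Ltf, Lcn2 and Cd177 were themselves used to sort cells into immature neutrophils, which limits their level in the monocyte class. Monocyte markers also moved. Cx3cr1, the fractalkine receptor of patrolling monocytes and one of the sorting markers, was lower in HRO (-1.45, adjusted p = 0.00333), and Ly6c2, a marker of classical monocytes, had a log2 fold change of 0.14 (adjusted p = 0.654). The part of a shift among kinds of monocyte in the S100a8 result was not tested.

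Of 8 receptor and adaptor genes of the S100A8 and S100A9 pathway 7 were tested, and 3 were higher in HRO than in WTO monocytes, none was lower and 4 did not pass. The list median was 0.57, and over all genes 9.46% were called, 536 higher and 398 lower. Tlr4, the receptor, was 1.20 higher (adjusted p = 0.00279), with 14.1 to 28.7 CPM in the 6 HRO samples, against 5.92 to 11.2 CPM in the 4 WTO samples, and the groups did not overlap. The levels of WTO.3, WTO.5 and WTO.6 rest on 4, 3 and 4 UMIs, which limits their precision. Myd88, its adaptor, was 0.97 higher (adjusted p = 0.00153), with 80.1 to 141.1 CPM in HRO, against 35.3 to 62.1 CPM in WTO samples, also without overlap. Bsg, which encodes basigin, was 0.32 higher (adjusted p = 0.0310). Cd14, the co-receptor of TLR4, had a log2 fold change of 1.05 and did not pass (adjusted p = 0.0726).

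Of 9 annexins and partners, none was higher and 2 were lower in HRO monocytes, beside the 398 of 9876 genes called lower. Anxa3 was 1.17 lower (log2 fold change -1.17, adjusted p = 0.000119), with 37.2 to 50.3 CPM in HRO, against 58.2 to 126.9 CPM in WTO samples. Ahnak, a giant protein that binds the annexin A2 and S100A10 complex, had a log2 fold change of -0.63 (adjusted p = 0.00441), and its levels overlapped between the groups. Anxa1 and Anxa2, the partners of S100A11 and S100A10, had log2 fold changes of 0.08 and 0.14 and were not called. Of 12 other genes with an S100 symbol 3 were tested, and S100a1 was called higher (0.58, adjusted p = 0.00694).

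HRO monocytes also had more S100a8 and S100a9 than HRY monocytes, by 1.98 (standard error 0.315, edgeR adjusted p = 0.00200) and 1.64 (0.374, adjusted p = 0.0173) log2 units. The 2 members called are among 473 genes, 4.79% of those tested, and DESeq2 called 3 members. WBM_3 is the only pool that holds both groups. There HRO.10 had 3374 CPM of S100a8, against 762.8 and 1164 CPM in HRY.5 and HRY.6, and 1488 CPM of S100a9, against 360.1 and 559.4 CPM. HRO.10 was above both HRY samples in each gene, by 1.81 and 1.69 on the log2 scale. Without HRO.10 neither gene was called (2.11 with adjusted p = 0.299, and 1.57 with adjusted p = 0.578), so both calls rest on that sample. The S100a9 call was also lost without HRY.4 (1.80, adjusted p = 0.05004), HRY.5 (1.45, adjusted p = 0.0849) or WTO.3 (1.68, adjusted p = 0.0539). S100a4 ran the other way, with 864.1 CPM in HRO.10, against 1391 and 1541 CPM in HRY.5 and HRY.6, and a log2 fold change of -0.47 that did not pass (adjusted p = 0.0739). Of the lists, 3 of 7 receptor and adaptor genes were called higher (Tlr4 1.47, Myd88 1.24, Bsg 0.43), 2 of 9 annexins and partners lower (Anxa3 -1.20, Ahnak -0.82), 2 of 12 neutrophil transcripts higher and none lower (Wfdc21 4.38, Lcn2 2.59). S100a1 was not called here (-0.05). The HRO samples are shared by both comparisons.

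Between HRY and WTY monocytes edgeR called 0 members, with 1 member (S100a4) at an unadjusted p under 0.05 and 0 called by DESeq2, and 0% of all genes was called, with 597 of 9876 under 0.05. S100a8 was 5749 CPM in HRY.4, against 5939 CPM in WTY.3, both in WBM_1, and 762.8 and 1164 CPM in HRY.5 and HRY.6, against 587.2 and 1279 CPM in WTY.4 and WTY.5. The groups overlapped in WBM_3, and the log2 fold change was 0.05 (standard error 0.268). S100a4 had 2010 CPM in HRY.4, against 1704 CPM in WTY.3, and 1391 and 1541 CPM in HRY.5 and HRY.6, against 1162 and 1160 CPM in WTY.4 and WTY.5. HRY was higher in both pools, with a log2 fold change of 0.34 (adjusted p = 0.800).

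The S100a8 change of HRO over WTO was larger than that of HRY over WTY, by 1.85 log2 units (standard error 0.359, edgeR adjusted p = 0.0175). For S100a9 that difference was 1.54 and for S100a4 -0.55, and neither passed (adjusted p = 0.0914 and 0.0903). The member called is among 147 genes, 1.49% of those tested. The call for S100a8 was lost in 5 of 18 fits that left out 1 sample, WTY.3, WTY.5, HRY.4, HRY.5 or WTO.4, in which the difference was 1.56 to 1.83. WTO and WTY monocytes gave 0 members called by edgeR, 0 under an unadjusted p of 0.05 and 0 by DESeq2, with 0% of genes called and 390 under 0.05, and a log2 fold change of 0.14 for S100a8 (standard error 0.325).

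In neutrophils, where S100a8 and S100a9 are most abundant, no member passed in any comparison by edgeR or by DESeq2. S100a8 in immature neutrophils of HRO samples was 129600, 136700 and 128400 CPM in WBM_2, against 133200 CPM in WTO.4, and 132300 and 137400 CPM in WBM_4, against 143000 and 149700 CPM in WTO.5 and WTO.6. The log2 fold change was -0.08 (standard error 0.0938, adjusted p = 0.755), and in mature neutrophils it was 0.26 (0.306, adjusted p = 0.900). S100a9 had -0.14 (0.111) in immature and 0.13 (0.302) in mature neutrophils. The share of all genes called was 2.09% in immature and 1.88% in mature neutrophils for HRO over WTO, 0.809% and 0.493% for HRO over HRY, 0.0104% and 0.019% for HRY over WTY, 0% and 0.0758% for WTO over WTY, and 0.0519% and 0.0948% for the difference of changes. The 0 members called stand beside these low shares.

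Members under an unadjusted p of 0.05 in neutrophils were S100a4 in mature cells of HRO over WTO, S100a4 and S100a10 in immature cells of HRO over WTO, and S100a4 and S100a6 in immature cells of HRO over HRY, and none in the other comparisons. S100a4 had a log2 fold change of 1.25 (standard error 0.453, adjusted p = 0.220) in mature neutrophils, with levels of 2.90 to 49.9 CPM in HRO, against 5.02 to 43.3 CPM in WTO samples, which overlap. S100a6 in immature neutrophils had 3398 CPM in HRO.10, against 614.0 and 1699 CPM in HRY.5 and HRY.6, and a log2 fold change of 1.05 (adjusted p = 0.166). Among the receptor genes, Cd14 was higher in HRO than in WTO mature neutrophils by 3.84 (adjusted p = 0.000391) and in immature neutrophils by 2.03 (adjusted p = 0.0322), the only call among the 6 and 8 genes of the list tested there. In mature neutrophils it was at 61.3 to 643.0 CPM in the 6 HRO samples, against 0 to 20.1 CPM in the 4 WTO samples, and the groups did not overlap. Of the same list Myd88 was higher in immature neutrophils of HRO over HRY (0.92, adjusted p = 0.0219), and of the neutrophil transcripts Ly6g was higher in mature neutrophils of HRO over HRY (1.76, adjusted p = 0.0287).

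In T cells S100a4 was the member with the largest log2 fold change between HRO and WTO, and it did not pass. HRO samples had 384.5, 372.7 and 610.7 CPM in WBM_2, against 152.7 CPM in WTO.4, and 760.7 and 870.0 CPM in WBM_4, against 439.9 CPM in WTO.6. HRO.10 had 1080 CPM and WTO.3 23.6 CPM, and the WTO.3 level rests on 1 UMI. Every HRO sample lay above the WTO sample of its pool, where there was one. The log2 fold change was 1.29 (standard error 0.328, unadjusted p = 0.00260, adjusted p = 0.551 by edgeR over 3691 genes). S100a11 had 0.72 (adjusted p = 0.551). No gene was called (0%, with 332 under an unadjusted p of 0.05), 2 members were under that p, and DESeq2 called 0 members. The single HRY and the single WTY sample with enough T cells allowed no test of HRY over WTY, HRO over HRY, WTO over WTY or the difference of changes there.

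**Figure D5:**
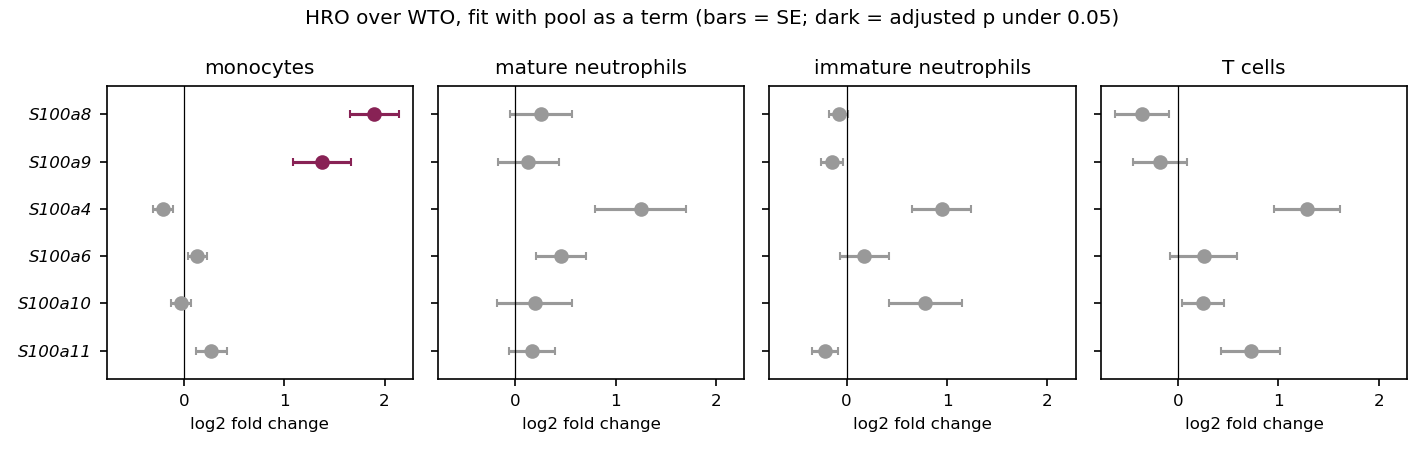
Log2 fold changes of the 6 members for HRO over WTO in monocytes, mature neutrophils, immature neutrophils and T cells, with bars for the standard error and dark points where edgeR's adjusted p was under 0.05. The dark points are S100a8 (1.90) and S100a9 (1.38) in monocytes, and the same genes lie near 0 in immature neutrophils (-0.08 and -0.14).

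Between the chronic samples, HRO.5 and HRO.6, and the other groups of WBM_1 edgeR called 0 members in every class fitted. The contrast sets them against the mean of HRY, WTO and WTY in the fit of all pools. With pool as a term, that mean also rests on samples outside WBM_1, so the fold changes are not from WBM_1 alone. Monocytes had 5439 and 5405 CPM of S100a8 in the chronic samples, against 5749 CPM in HRY.4, 6690 CPM in WTO.3 and 5939 CPM in WTY.3, and the log2 fold change was -0.14 (standard error 0.299, adjusted p = 1). In CPM chronic monocytes lay below the other 3, and each of the 5 lay below the B lineage cells of its own sample. Per cell, the S100a8 UMIs ran the other way in each of the 5. They were 3357 in 201 monocytes of HRO.5, against 1922 in 223 of its B lineage cells. In HRO.6 they were 16799 in 747 monocytes, against 2194 in 271 B lineage cells. S100a4 had 1858 and 1855 CPM in chronic monocytes, against 2010, 2007 and 1704 CPM in HRY.4, WTO.3 and WTY.3, and the groups overlapped. The share of genes called was 0% in monocytes, mature neutrophils, immature neutrophils and T cells alike, with 322, 270, 380 and 289 genes under an unadjusted p of 0.05, and DESeq2 called 0 members in each.

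T cells of the chronic samples had 4 members under an unadjusted p of 0.05, namely S100a4, S100a6, S100a10 and S100a11. S100a4 was 381.8 and 223.2 CPM in the chronic samples, against 129.3 CPM in HRY.4, 23.6 CPM in WTO.3 and 214.1 CPM in WTY.3, a log2 fold change of 1.84 (standard error 0.479, adjusted p = 0.618). S100a6 was 1786 and 1280 CPM, against 819.2, 448.4 and 963.7 CPM in HRY.4, WTO.3 and WTY.3, a log2 fold change of 1.15 (0.382, adjusted p = 0.618). Both chronic samples lay above the other 3 in each gene, from 30 to 62 T cells a sample. The S100a4 levels of WTO.3, HRY.4 and WTY.3 rest on 1, 6 and 10 UMIs, which limits their precision. With the B lineage level of the sample subtracted they did not. S100a4 was then 331.8 and 133.1 CPM in HRO.5 and HRO.6, against 146.4 CPM in WTY.3, and S100a6 was 1209 and 370.0 CPM, against 574.2 CPM in WTY.3 and 423.7 CPM in HRY.4. B lineage cells had 577.0 and 909.6 CPM of S100a6 in the chronic samples, against 383.4 to 395.4 CPM in the other 3. These samples share the library WBM_1 and its free RNA, so the subtraction cannot part background from other differences between their B lineage cells. For S100a4 the B lineage level rests on 14 to 30 UMIs a sample. S100a11 had 0.98 and S100a10 0.62, and the median over all genes was 0.36. S100a8, which in these cells sits at the background, had 0.05.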

How the data were processed

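Whole marrow cells of 20 hashtag samples were measured by droplet 3′ sequencing of single cells, in 4 pools and 7 libraries. The values deposited by the authors are raw counts, of UMIs for each gene and of hashtag antibodies, in each barcode. Matrices were written by Cell Ranger 3.0.0 (WBM_1) and 3.1.0 (the other libraries), per the file headers. The submitters' processing notes name the mm10 build, Seurat, Cell Ranger and bcl2fastq. The annotation counted and the filter on barcodes were not given in the sources used here.

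Hashtags were assigned with HTODemux (Seurat 5.3.0, quantile 0.99), with counts normalised across cells. Of 78720 barcodes 57983 were singlets. Cells under 300 genes (4540), cells with at least 10% mitochondrial counts (10369) and 12 lower copies of barcodes shared by the WBM_3 libraries were removed. Doublets were otherwise removed by hashtag only. A cell took the class whose markers, among 16 lists, scored highest, with at least 3 markers found, a score of at least 0.1 and at least 1.3 times the next score, and 5314 cells stayed without a class.

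For each class, the counts of a hashtag sample were added up if it had 20 cells or more. The sums entered edgeR 4.0.16 (R 4.3.3), with its quasi-likelihood test, TMM, filterByExpr and Benjamini-Hochberg adjustment at 0.05, in 1 fit of all groups with group and pool as terms. Each standard error is the absolute log2 fold change divided by the square root of F. The code was tested on simulated data. DESeq2 1.42.0, other filters, other scalings and fits without each sample were alternatives. 3 more, without WBM_3b, without the margin between class scores and without WBM_1, were chosen after seeing the data. The members, lists and alternatives were chosen with earlier results of these data known. Named genes are the members, the 3 genes most like each across classes, and of each other list at most 4 genes past the threshold, by adjusted p. Genes named outside this rule (Cd14, Cd177, Ltf, Anxa1 and Anxa2 in monocytes, Cx3cr1 and Ly6c2) were chosen after their values were seen.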

Additional observations from a re-analysis of the deposited data

Results flagged for a closer look

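Within groups, a single sample stood far from the others of its group, beyond Dixon's 95% critical value, in 9 of 42 sets of gene, group and class tested. Chance gives about 1 in 20 for a single set, but the sets share samples, so their count cannot be held against that rate. WTO.3, the WTO sample of WBM_1, stood apart in 4 of them. It had 86.54 CPM of S100a10 in mature neutrophils, and in immature neutrophils 245400 CPM of S100a8, 51.91 CPM of S100a4 and 54.12 CPM of S100a10. The nearest WTO samples had 19.94, 149700, 5.505 and 9.306 CPM. The other samples of WBM_1 were high in the same genes, except HRO.5 with 28.18 CPM of S100a10 in mature neutrophils. The S100a10 levels in mature neutrophils rest on 2 UMIs in WTO.3 and 1 UMI in HRO.5, which limits their precision.

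HRO.10, the HRO sample of WBM_3, was the lowest of the HRO group in 4 more. It had 74280 CPM of S100a8 and 2723 CPM of S100a11 in mature neutrophils, 97070 CPM of S100a8 in immature neutrophils and 923.8 CPM of S100a10 in monocytes, and the nearest HRO samples had 110000, 4823, 128400 and 1144 CPM. The other samples of WBM_3 had 2422 to 3006 CPM of S100a11 in mature neutrophils and 699.3 to 1108 CPM of S100a10 in monocytes. In these values HRO.10 thus lay within the range of its pool. HRO.7 had 31.8 CPM of S100a10 in immature neutrophils, against 12.59 CPM in the nearest HRO sample.

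The change of HRO over WTO differed from that of HRY over WTY in monocytes, by edgeR's test of the difference itself, for 6 of the genes named. The difference was 1.845 log2 units for S100a8, 1.711 for Tlr4 and 1.176 for Myd88, and -1.432 for Anxa3, -2.078 for Cx3cr1 and -0.3983 for Lyz2, with adjusted p from 0.00414 (Anxa3) to 0.0458 (Lyz2).

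HR.AE, which enters no comparison, had 3955 CPM of S100a6 and 447.4 CPM of S100a4 in 1012 basophils or mast cells. The other 3 samples with such cells had 252.4 to 1429 CPM and 16.83 to 107.5 CPM.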

How the results depend on the processing

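The S100a8 rise in HRO over WTO monocytes was called under every alternative but the fit without a pool term (0.25). The count of 2 members there became 0 without the pool term and 1 without WBM_1, and was 1 to 3 with 1 sample left out. For HRO over HRY it became 0 without the pool term or with the free RNA term, 1 without the margin between class scores and 1 without WBM_1, and was 0 to 3 with 1 sample left out. With DESeq2 it was 3. For the difference of changes the count of 1 became 3 without a filter, 2 with DESeq2 or without the top doublet scores, 0 without the pool term, without the margin or without WBM_1, and 0 to 3 with 1 sample left out. Without the pool term S100a9 turned to -0.21 (HRO over WTO) and -0.047 (HRO over HRY). With the free RNA term, HRO over HRY had 2.96 for S100a8 and 2.60 for S100a9, both not called; that fit lacks HRO.10, the HRO sample that shares a pool with HRY. With 1 sample left out, S100a8 was 1.66 to 2.08 for HRO over WTO, 1.85 to 2.19 for HRO over HRY and 1.56 to 2.09 for the difference, and S100a9 was 1.15 to 1.64 and 1.45 to 1.80.

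In neutrophils and T cells the count of 0 became 1 in mature cells with hashtag counts normalised within each cell (HRO over WTO). Without a filter it became 2 (HRO over WTO), 1 (HRY over WTY), 2 (HRO over HRY), 1 (chronic) and 1 (difference) in immature cells and 1 in T cells (HRO over WTO). With 1 sample left out it was 0 to 1 in immature cells for HRO over HRY and in T cells for HRO over WTO, and 0 to 0 in the other comparisons. The cause of these moves was not tested.

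Over all genes, the 934 calls of HRO over WTO in monocytes became 187 without the pool term, 139 with the free RNA term, 426 without WBM_1, 154 without WTO.4, 518 without WTO.3, 516 without HRO.10 and 1889 without HRO.9. Of 60 shares of cells, 51 moved when cells were thinned to 2000 UMIs or not thinned, and 11 of 138 median levels moved, most of them when the B lineage level was subtracted. No paired analysis was possible because the compared groups share too few hashtag numbers and a number names 1 sample, not a pairing. S100a4 in mature neutrophils rests on 1 to 26 UMIs a sample, which limits the precision of its level there.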

Other observations

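HR.7, which stands alone in WBM_3, had 958.5 CPM of S100a8 and 516.6 CPM of S100a9 in 954 monocytes, within the range of the HRY and WTY samples of its pool, which had 587.2 to 1279 CPM and 360.1 to 809.3 CPM. Its S100a4 in monocytes was 1025 CPM, above the 864.1 CPM of HRO.10 and below the 1160 to 1541 CPM of the others. Its S100a10 in monocytes, 699.3 CPM, was the lowest of 19 samples. In immature neutrophils its S100a4 was 46.95 CPM, against 6.091 to 26.25 CPM in the other samples of WBM_3.

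HR.AE had 490.0 CPM of S100a10 and 108.9 CPM of S100a11 in basophils or mast cells, and 214.5 CPM of S100a8 and 211.7 CPM of S100a9, which is near the B lineage level of WBM_2. Basophils are granulocytes of the IgE response and mast cells their tissue counterparts in function.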
